A study of Mus musculus with 54 samples.

Results

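The nuclear genes that encode the subunits of the 5 oxidative phosphorylation complexes were followed in cultured lung fibroblasts and in whole lungs of mice in which branched-chain amino acids (BCAAs: leucine, isoleucine and valine), or the handling of the branched-chain keto acids (BCKAs) made from them, had been altered. Members were the symbols beginning with Nduf, Sdha to Sdhd, Uqcr, Cox4 to Cox8 or Atp5 that were listed in all 4 expression tables, without the Ndufaf and Sdhaf assembly factors and without symbols ending in -ps and a digit. They came to 88 of the 19828 symbols listed in all 4 tables, with 40 in complex I, 4 in complex II, 8 in complex III, 19 in complex IV and 17 in complex V. Ndufa4 and Ndufa4l2, which carry complex I names, were placed with complex IV, where Ndufa4 is known to sit. The pseudogene Ndufs5-ps met the rule as written and stayed in, but its reads may be shared with Ndufs5, and the same holds for other members with near-identical copies, such as Atp5g1, Atp5g2 and Atp5g3.

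Complexes I to IV of the inner mitochondrial membrane pass electrons from NADH and succinate to oxygen. Complexes I, III and IV pump protons as they do so, and complex V, the ATP synthase, uses the proton gradient to make ATP. Most subunits are encoded in the nucleus and a few core ones in mitochondrial DNA, so that every complex but complex II needs both genomes. Several complex IV subunits exist as paired isoforms: Cox6a2, Cox7a1 and Cox8b are the forms of heart and skeletal muscle, Cox4i2 is the form known from lung and from oxygen-dependent regulation, Cox6b2 is known from testis, and Ndufa4l2 is a relative of Ndufa4 known as a target of hypoxia-inducible factor.

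Transcripts were measured by RNA-seq of poly(A)-selected RNA in 54 libraries, deposited as TPM (a level per unit of transcript length, scaled to the same total in each library). The 24 fibroblast libraries came from wild-type primary mouse lung fibroblasts, isolated from mice of 6 to 8 weeks and grown at 5% oxygen. Cells were kept in complete medium, in medium without BCAAs, or in the BCAA-free medium with BCAAs or with BCKAs added back, for 24 h, and then received PBS or transforming growth factor β1 (TGF-β1, 20 ng/mL), the cytokine that drives fibroblasts toward collagen-producing myofibroblasts, for 48 h. Each of these 8 groups had 3 libraries. The 30 lung libraries came from wild-type male C57BL/6 mice of 10 to 12 weeks that received PBS or bleomycin, a drug that injures the lung and leads to fibrosis. In the water experiment (3 mice a group) the groups were PBS with normal water, bleomycin at 1.25 mg/kg with normal water, and the same bleomycin dose after 7 days of 3 mM BCAAs in the drinking water, and lungs were taken on day 14. In the diet experiment (4 mice a group) the groups were PBS with normal diet, bleomycin at 1.25 mg/kg with normal diet, and bleomycin followed after 7 days by 14 days of BCAA-free food, and lungs were taken on day 21. In the BT2 experiment (3 mice a group) the groups were PBS, bleomycin at 3.5 mg/kg with daily injections of 10% DMSO for 11 days from day 3, and the same bleomycin dose with 20 mg/kg BT2, which blocks the kinase (Bckdk) that holds BCKA oxidation in check, and lungs were taken on day 14. The titles of the PBS mice of this experiment name DMSO and their treatment label gives PBS alone, so whether they received DMSO injections is not settled by the labels. The labels do not say whether the 3 fibroblast libraries of a group were separate cultures, so the p-values may measure technical spread alone.

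The promoters of 4 members are shown because these genes are named in the fibroblast results below and differ in the motifs they hold. These are Atp5b (catalytic β subunit of ATP synthase), Uqcrh (the acidic hinge protein of complex III), Cox6a1 (the widely expressed partner of Cox6a2) and Cox6b2. They were picked after their values were seen. Each run is 300 bases, from 250 before to 50 after the transcript start, 5′ to 3′ on the gene's strand, from RefSeq on GRCm38.p6, which is not the mm39 build that the submitters' processing notes name. Capitals mark the core letters bound by nuclear respiratory factor 1 (NRF1, GCGCATG or, on the other strand, CATGCGC) and by the ETS factor GABPA (CCGGAAG or CTTCCGG), both known activators of respiratory chain genes. The coordinates were chr10:128083057-128083356 on the plus strand for Atp5b, chr4:116075021-116075320 on the minus strand for Uqcrh, chr5:115348909-115349208 on the minus strand for Cox6a1 and chr7:4753045-4753344 on the minus strand for Cox6b2.
Atp5b: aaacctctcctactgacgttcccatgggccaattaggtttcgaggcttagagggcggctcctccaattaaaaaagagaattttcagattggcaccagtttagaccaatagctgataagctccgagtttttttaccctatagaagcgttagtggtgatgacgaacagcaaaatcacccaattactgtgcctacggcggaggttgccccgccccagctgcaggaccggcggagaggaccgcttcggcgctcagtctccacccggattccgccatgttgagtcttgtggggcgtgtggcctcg
Uqcrh: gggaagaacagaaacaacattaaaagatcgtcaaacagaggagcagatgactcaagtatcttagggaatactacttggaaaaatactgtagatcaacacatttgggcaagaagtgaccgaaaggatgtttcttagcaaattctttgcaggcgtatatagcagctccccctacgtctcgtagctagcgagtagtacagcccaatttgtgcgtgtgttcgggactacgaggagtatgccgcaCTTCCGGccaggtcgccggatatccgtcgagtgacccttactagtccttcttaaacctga
Cox6a1: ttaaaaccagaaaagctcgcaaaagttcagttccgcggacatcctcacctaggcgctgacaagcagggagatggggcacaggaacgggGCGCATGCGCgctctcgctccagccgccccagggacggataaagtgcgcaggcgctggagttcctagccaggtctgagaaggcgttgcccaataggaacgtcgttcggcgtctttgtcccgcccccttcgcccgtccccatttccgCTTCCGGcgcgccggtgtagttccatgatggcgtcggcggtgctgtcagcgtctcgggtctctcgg
Cox6b2: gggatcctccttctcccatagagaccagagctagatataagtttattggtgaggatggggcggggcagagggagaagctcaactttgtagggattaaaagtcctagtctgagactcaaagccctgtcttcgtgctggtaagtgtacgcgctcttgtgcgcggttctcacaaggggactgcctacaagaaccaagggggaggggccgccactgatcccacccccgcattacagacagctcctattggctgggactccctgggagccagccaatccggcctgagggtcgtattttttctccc
The Cox6a1 window held the NRF1 core on both strands in 1 overlapping palindrome and 1 GABPA core, the Uqcrh window held 1 GABPA core, and neither motif was in the windows of Atp5b and Cox6b2. RefSeq promoters were at hand for 70 of the 88 members. The NRF1 core stood in 13 of these 70 (18.6%) against 1091 of all 27025 promoters (4.04%), and the GABPA core in 16 of 70 (22.9%) against 2465 of 27025 (9.12%). Both cores stood in Ndufb6, Sdhb, Uqcr11, Cox6a1, Atp5k and Atp5l, without overlapping each other. These matches are a description of letters, not of binding.

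Some libraries stood apart within their groups, and 1 lung group stood apart as a whole. Among the fibroblasts given TGF-β1 without BCAAs, library 1 had 21 of 81 members at or below 0.5 times the mean of its 2 partners and 6 at or above 2 times, and its Col1a1 level was 27677 TPM against 6052 and 4495 TPM in the other libraries of the group. Library 2 of the complete TGF-β1 group had a median ratio of 1.51 to its partners over 82 members, library 2 of the BCAA-free TGF-β1 group had 12 of 78 members at or above 2 times, and library 3 of the BCAA-free PBS group had 5 of 82 at or below 0.5 times. In the lungs, mouse 3 of the BCAA-free diet group had 28 of 86 members at or below 0.5 times its partners, mouse 1 of the water experiment's bleomycin group had 10 of 83, and mouse 2 of the BT2 experiment's bleomycin group had a median ratio of 0.766. Counts of calls that rest on these libraries are given with and without them. The fibroblasts carried fibroblast markers at a summed 13487 TPM or more under PBS in complete medium. The 4 leukocyte markers summed to between 0.38 and 0.64 TPM there, with 2 of them, Ptprc and Cd3e, listed at 0.

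TGF-β1 in complete medium raised a minority of the subunit transcripts and lowered 1. Of the 84 members that passed the low-value filter (TPM of at least 1 in 3 libraries), 19 rose and 1 fell by limma at an adjusted p under 0.05, where 48.6% of all genes tested were called, 12.2% higher and 36.4% lower. The median difference of the members was 0.31 on the log2(TPM + 1) scale, against -0.20 over all genes. By complex, 8 of 38 members rose in complex I, none of 4 in complex II, 2 of 8 in complex III, 6 of 17 in complex IV and 3 of 17 in complex V. With each library left out in turn, 6 of the 20 calls held in all 6 refits, namely those of Uqcr10, Cox4i2, Cox6a2, Cox6b2, Cox7a1 and Ndufa4l2. Without library 2 of the complete TGF-β1 group the count was 6 higher and none lower, and centring each library on its own median gene moved it to 44 higher and none lower. Over all genes tested, 1358 were higher and 4233 lower without that library, and 2789 and 3010 after centring.

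The largest rises were in complex IV isoforms. Cox4i2 stood at 5.08, 4.68 and 3.36 TPM under PBS and at 13.4, 22.9 and 14.4 TPM under TGF-β1 (log2 difference 1.71, SE 0.175, adjusted p = 4.49e-08). Ndufa4l2 went from 69.3, 73.6 and 70.5 TPM to 222, 321 and 235 TPM (log2 difference 1.83, SE 0.211, adjusted p = 2.64e-07). For both genes every TGF-β1 library lay above every PBS library. Cox6a2 was listed at 0 in all 3 PBS libraries and at 3.17, 5.11 and 3.44 TPM under TGF-β1 (adjusted p = 2.63e-08). Cox6b2 rose less, from 17.0, 17.1 and 15.7 TPM to 23.8, 32.3 and 23.1 TPM (log2 difference 0.62, SE 0.163, adjusted p = 0.00329), again without overlap. Of the partners, Cox4i1 was at 267, 298 and 314 TPM and then at 266, 402 and 266 TPM, which overlapped (log2 difference 0.06 (adjusted p = 0.817)). Cox6a1 rose by 0.63 (adjusted p = 0.0438), about as much as Cox6b2, a call that was lost without library 2 of the TGF-β1 group. Cox7a1 also rose (0.83 (adjusted p = 1.58e-05)) but reached no more than 1.05 to 1.33 TPM.

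Members of the other complexes rose too. Uqcrq, a small subunit of complex III, was at 44.3, 49.6 and 49.4 TPM under PBS and 85.8, 130.2 and 84.0 TPM under TGF-β1 (log2 difference 1.02, SE 0.320, adjusted p = 0.0116). Ndufc1, an accessory subunit of complex I, went from 23.0, 21.9 and 25.3 TPM to 34.3, 57.7 and 33.7 TPM (log2 difference 0.77, SE 0.220, adjusted p = 0.00611). In both, library 2 was the highest of the TGF-β1 group by a wide margin, and both calls, like that of the complex V subunit Atp5md (0.73 (adjusted p = 0.0441)), were lost without it. Sdha, the flavoprotein of complex II and the member with the highest level in that complex, fell from 265, 278 and 275 TPM to 223, 225 and 224 TPM (-0.28 (adjusted p = 0.0469)), a call that no refit without a library kept. Atp5b rose from 573, 582 and 608 TPM to 649.7, 778 and 662 TPM (log2 difference 0.24, SE 0.0848, adjusted p = 0.0231), a call kept in 3 of the 6 refits.

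**Figure D1:**
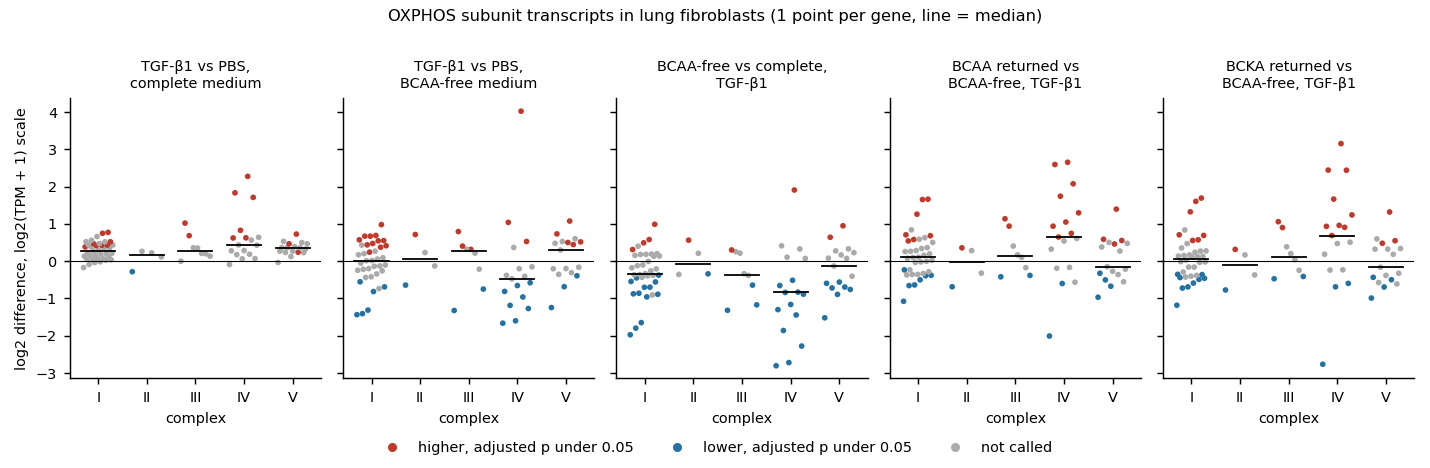
Each point is 1 member's log2 difference on the log2(TPM + 1) scale in 1 of 5 fibroblast comparisons, grouped by complex, with the median of the complex as a line and calls at an adjusted p under 0.05 in colour. Under TGF-β1 without BCAAs the complex IV median lay at -0.84 against complete medium, with Cox6a2 the one complex IV member called higher.

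Removing BCAAs made no call among the members in the absence of TGF-β1. None of 84 members passed limma's test in either direction, where 0.91% of all genes were called (0.573% higher and 0.336% lower), and before adjustment 1 member was higher and 1 lower at p under 0.05. The smallest p belonged to Cox4i2 (log2 difference 0.51 (adjusted p = 0.293)), which was at 5.51, 7.84 and 6.53 TPM without BCAAs.

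Under TGF-β1 the 2 media parted. Against complete medium, 9 members were higher and 36 lower in BCAA-free medium, where 60.3% of all genes were called, 35.5% higher and 24.8% lower, and the members' median was -0.36 against 0.10 over all genes. Complex IV had 12 of its 17 members lower and 1 higher, beside 13 lower and 4 higher of 38 in complex I, 7 lower and 2 higher of 17 in complex V, 3 lower and 1 higher of 8 in complex III and 1 each of 4 in complex II. The balance of the count rested on single libraries: it was 12 higher and 27 lower without BCAA-free TGF-β1 library 1 (33 calls shared), 18 and 22 without complete TGF-β1 library 2, 21 and 19 without both (27 shared), and 11 and 47 without BCAA-free TGF-β1 library 2. Over all genes tested, 5516 were higher and 3073 lower without BCAA-free TGF-β1 library 1, and 4433 and 3051 without complete TGF-β1 library 2. Without both, 5520 of all genes were higher and 3014 lower, and the members' share called lower was near theirs. Over 7 refits, each library left out in turn and both at once, 22 of the 45 calls held every time. They were 6 higher, Ndufs1, Ndufv1, Sdhb, Cox6a2, Atp5a1 and Atp5b, and 16 lower, Ndufa1, Ndufa3, Ndufb4, Uqcr11, Uqcrh, Cox4i2, Cox6b1, Cox6b2, Cox6c, Cox7a1, Cox7a2, Cox7b, Cox8a, Ndufa4l2, Atp5j and Atp5l.

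The isoforms that TGF-β1 had raised in complete medium were mostly low without BCAAs. Cox4i2 stood at 1.05, 1.65 and 1.87 TPM, below every library of the complete TGF-β1 group and of both PBS groups (log2 difference from complete TGF-β1 -2.80, SE 0.175, adjusted p = 8.5e-12). Cox6b2 stood at 2.37, 4.08 and 3.07 TPM, again below all of those libraries (log2 difference -2.72, SE 0.163, adjusted p = 4.49e-12). Ndufa4l2 stood at 88.5, 45.8 and 34.7 TPM, near or below the PBS libraries of the BCAA-free medium (79.2, 99.0 and 71.4 TPM) and below the complete TGF-β1 group (log2 difference -2.28, SE 0.211, adjusted p = 5.63e-09). Cox6a2 went the other way, with 27.6, 15.4 and 11.8 TPM, above every other fibroblast library (log2 difference 1.91, SE 0.225, adjusted p = 2.2e-07). Cox4i1 was at 635, 339 and 313 TPM and did not pass against complete TGF-β1 (0.41 (adjusted p = 0.0796)), and Cox6a1 at 702, 287 and 256 TPM did not either (0.33 (adjusted p = 0.271)).

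Small subunits of complex IV were also lower. Cox8a, one of the smallest, was at 19.0, 95.5 and 63.9 TPM against 123, 164 and 122 TPM in complete medium (log2 difference -1.44, SE 0.326, adjusted p = 0.000646). Cox7a2, the widely expressed partner of Cox7a1, was at 3.20, 40.1 and 28.1 TPM against 53.5, 84.0 and 50.7 TPM (log2 difference -1.86, SE 0.464, adjusted p = 0.00159). The groups did not overlap for either gene, and library 1 was the lowest by far in both: over the refits the differences ran from -1.92 to -0.64 for Cox8a and from -2.49 to -0.62 for Cox7a2. Further complex IV members that fell were Cox5b (-0.65), Cox6b1 (-0.88), Cox6c (-1.30), Cox7a1 (-0.84), Cox7b (-1.16), Cox7c (-0.83) and Ndufa4 (-0.51). Cox5b kept its call in 3 of 7 refits, Cox7c in 4 and Ndufa4 in 3.

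In complex I the direction differed between members. Ndufv1, the subunit that takes electrons from NADH, was at 220.1, 121 and 127 TPM without BCAAs and at 65.6, 92.0 and 70.2 TPM with them under TGF-β1 (log2 difference 0.99, SE 0.163, adjusted p = 2.07e-05). Ndufs1, an iron-sulfur core subunit, was at 95.9, 81.2 and 80.4 TPM against 57.2, 57.4 and 56.0 TPM (log2 difference 0.58, SE 0.0926, adjusted p = 1.4e-05). For both, all 3 BCAA-free libraries were above all 3 complete ones. Ndufa8 and Ndufa9 were the other members called higher (0.49 and 0.31), in 4 and 3 of 7 refits. On the lower side, the accessory subunit Ndufa3 was at 4.74, 42.7 and 16.8 TPM against 56.4, 84.5 and 54.0 TPM (log2 difference -1.97, SE 0.434, adjusted p = 0.000491). Ndufb4, another accessory subunit, was at 0.702, 12.3 and 6.83 TPM against 15.4, 24.0 and 17.0 TPM (log2 difference -1.79, SE 0.421, adjusted p = 0.00092), and Ndufa1 at 3.73, 21.3 and 13.3 TPM against 30.3, 44.1 and 31.8 TPM (log2 difference -1.65, SE 0.348, adjusted p = 0.000328). Library 1 held the lowest value of the BCAA-free group for all 3 of these genes, and at their smallest over the refits the differences were -1.01, -0.75 and -0.84. The other complex I members that fell did so by between -0.37 (Ndufb10) and -0.96 (Ndufb1).

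Complexes II, III and V each held members of both directions. Sdhb, the iron-sulfur subunit of complex II, was at 137, 103 and 97.8 TPM against 63.8, 98.2 and 67.2 TPM (log2 difference 0.56, SE 0.141, adjusted p = 0.00158), with the lowest BCAA-free library under the highest complete one, and Sdha was at 131, 211 and 199.6 TPM against 223, 225 and 224 TPM (log2 difference -0.34, SE 0.115, adjusted p = 0.0145), a call lost without BCAA-free library 1 (log2 difference -0.12, adjusted p = 0.104). Sdhc and Sdhd, the membrane anchors, did not pass (0.21 and -0.36). Uqcrh was at 40.7, 38.0 and 28.7 TPM, below all 76.3, 125 and 75.8 TPM of the complete group (log2 difference -1.32, SE 0.166, adjusted p = 5.9e-07), Uqcr11 and Uqcrb fell (-1.17 and -0.64), and Uqcrc1, a core protein, rose (0.30 (adjusted p = 0.0106)), the last in 4 of 7 refits.

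Atp5b, the most abundant member in fibroblasts with a mean of 729 TPM over all libraries, was at 1441, 1270 and 1319 TPM without BCAAs against 649.7, 778 and 662 TPM with them (log2 difference 0.95, SE 0.0848, adjusted p = 3.09e-09). The next highest fibroblast library held 778 TPM. Atp5a1, the α subunit of the same catalytic head, was at 1124, 631 and 742 TPM against 488, 563 and 503 TPM (log2 difference 0.64, SE 0.130, adjusted p = 0.000218, from 0.40 to 0.82 over the refits). The subunit c gene Atp5g2, which forms the rotor ring, was at 6.39, 78.7 and 53.0 TPM against 87.2, 105 and 78.8 TPM (log2 difference -1.52, SE 0.478, adjusted p = 0.00918), and here the value of library 1 set the size: without both libraries that stood apart the difference was -0.35 (adjusted p = 0.0572). The summed TPM of complex V was 3527 ± 546 (SD, n = 3) without BCAAs and 2650 ± 468 with them, and without Atp5b it was 2184 ± 465 and 1953 ± 397, so the sums leaned on the catalytic head.

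**Figure D2:**
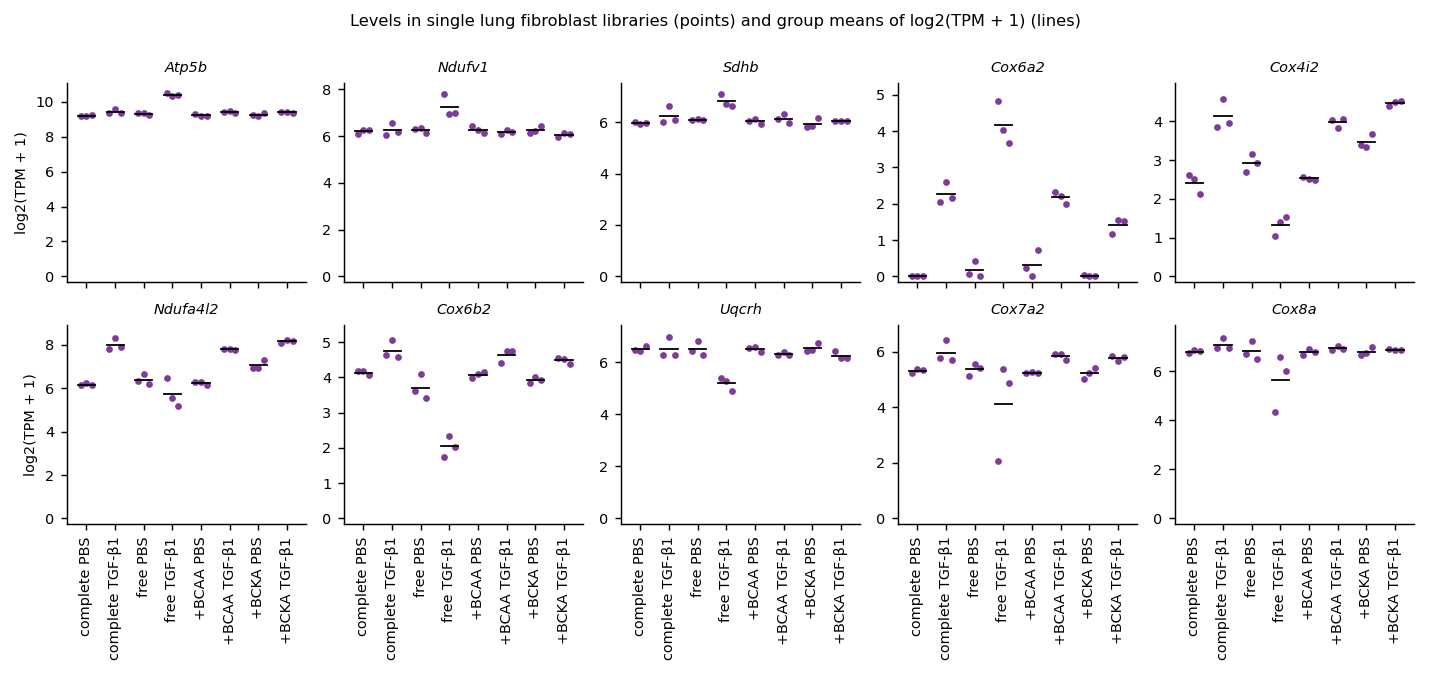
Points are single fibroblast libraries on a log2(TPM + 1) axis and lines are group means, for 10 members over the 8 groups of medium and cytokine. In BCAA-free medium with TGF-β1, Cox4i2 lies between 1.05 and 1.87 TPM, and Atp5b lies between 1270 and 1441 TPM.

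Tested as a difference of responses, TGF-β1 acted differently on 26 members in the 2 media. In that limma contrast, the response to TGF-β1 was higher without BCAAs for 5 members and lower for 21, where 47.6% of all genes were called, 29.2% higher and 18.4% lower. The 5 were Ndufv1 (0.93 (adjusted p = 0.0023)), Ndufs1 (0.63), Cox6a2 (1.75 (adjusted p = 0.000117)), Atp5a1 (0.55) and Atp5b (0.84 (adjusted p = 6.93e-06)). Complex IV held 10 of the 21, led by Cox4i2 (-3.31 (adjusted p = 4.84e-10)), Ndufa4l2 (-2.49 (adjusted p = 6.43e-07)) and Cox6b2 (-2.29 (adjusted p = 5.5e-08)). Uqcrh led complex III (-1.32 (adjusted p = 8.97e-05)), Ndufa3 complex I (-1.97 (adjusted p = 0.0116)) and Atp5l complex V (-0.81 (adjusted p = 0.013)). Over 13 refits that left libraries out, 16 of the 26 calls held every time, the 5 higher among them, and Cox7a2 (-1.91 (adjusted p = 0.0206)) lost its call without complete TGF-β1 library 2 (adjusted p = 0.0553). The count was 8 higher and 23 lower without BCAA-free TGF-β1 library 1, 10 and 15 without complete TGF-β1 library 2, 18 and 16 without both, 7 and 36 without BCAA-free TGF-β1 library 2, and 5 and 29 without BCAA-free PBS library 3. Over all genes tested it was 4896 and 2495 without BCAA-free TGF-β1 library 1. It was 3724 and 2330 without complete TGF-β1 library 2, and 5043 and 2536 without both.

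Within the BCAA-free medium, TGF-β1 raised 24 members and lowered 20, where 64.1% of all genes were called, 29.2% higher and 34.9% lower. Cox4i2 and Cox6b2 fell here (-1.60 and -1.66) although they had risen in complete medium. Atp5b, Ndufv1 and Sdhb rose (1.08, 0.98 and 0.71), and Sdha, Uqcrh and Atp5g2 fell (-0.64, -1.32 and -1.24). Cox6a1 rose (1.04 (adjusted p = 0.00108)), with library 1 at 702 TPM and the others at 287 and 256 TPM. With each library left out in turn, 27 of the 44 calls held in all 6 refits. Without library 1 the calls of Atp5g2, Cox6b1 and Cox7a2 were lost and Sdhd, not called before, was higher (log2 difference 0.27, adjusted p = 0.0104). The count was 23 higher and 16 lower without library 1, 23 and 30 without library 2, and 15 and 20 without library 3 of the BCAA-free PBS group, so the majority turned in the last 2 of these. Over all genes tested, 4435 were higher and 4231 lower without library 1. All-gene counts are not given for the last 2 refits, so their turn is not set apart from one of all genes.

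With BCAAs or BCKAs returned, members lay nearer to complete medium under TGF-β1, in comparisons that called most of all genes. With BCAAs, 23 members were higher and 16 lower than in BCAA-free medium, where 58.3% of all genes were called, 25% higher and 33.3% lower. With BCKAs, 22 were higher and 19 lower, where 58.4% of all genes were called, 25.1% higher and 33.4% lower. In both, the members' share called higher was near that of all genes and their share called lower was below it. Without BCAA-free TGF-β1 library 1 the counts were 18 higher and 16 lower with BCAAs and 17 and 22 with BCKAs, where the majority turned, and without library 2 they were 37 and 18, and 32 and 20. Centring each library on its median gene gave 27 higher and 9 lower with BCAAs and 24 and 14 with BCKAs. Over all genes tested, centring gave 3886 and 3780 with BCAAs and 3937 and 3725 with BCKAs. Without BCAA-free TGF-β1 library 1 the all-gene counts were 3070 and 5235 with BCAAs and 3071 and 5256 with BCKAs. Over 6 refits each, 24 of the 39 and 29 of the 41 calls held with every library left out in turn. Both comparisons share the BCAA-free TGF-β1 libraries with each other and with the loss described above, so opposite signs are partly built in, and the levels carry the description. Against complete TGF-β1, 40 of 84 members lay at least 0.5 log2 units away without BCAAs, none with BCAAs returned (range -0.41 to 0.08) and 2 with BCKAs returned (range -0.85 to 0.35). These distances were not counted over all genes, so they do not set the members apart from other genes.

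Cox4i2 was at 15.3, 13.3 and 15.7 TPM with BCAAs and at 19.9, 21.7 and 22.2 TPM with BCKAs under TGF-β1 (log2 difference from BCAA-free 2.65 (adjusted p = 2.36e-11) and 3.15 (adjusted p = 1.23e-12)). Cox6b2 was at 20.2, 25.8 and 25.9 TPM and 22.3, 21.9 and 19.9 TPM (2.59 (adjusted p = 1.06e-11) and 2.44 (adjusted p = 3.1e-11)). Ndufa4l2 was at 225, 226 and 218 TPM and 270.3, 301 and 292 TPM (2.08 (adjusted p = 2.48e-08) and 2.44 (adjusted p = 2e-09)). All of these libraries lay above the 3 of the BCAA-free TGF-β1 group. Cox6a2 was at 4.00, 3.63 and 3.00 TPM and 1.26, 1.93 and 1.90 TPM (-2.01 (adjusted p = 1.13e-07) and -2.76 (adjusted p = 7.77e-10)), and Atp5b at 674, 724 and 661 TPM and 681, 679.8 and 666 TPM (-0.97 (adjusted p = 2.53e-09) and -0.99 (adjusted p = 1.79e-09)). These fell below all BCAA-free TGF-β1 libraries. Ndufv1 fell (-1.07 (adjusted p = 7.71e-06) and -1.18 (adjusted p = 2.25e-06)), as did Sdhb (-0.69 and -0.77), while Uqcrh (1.14 and 1.06), Cox7a2 (1.74 and 1.67) and Cox8a (1.30 and 1.24) rose. Cox4i1 fell (-0.60 (adjusted p = 0.0139) and -0.69 (adjusted p = 0.00554)), with library 1 of the BCAA-free group at 635 TPM, and lost the first of these calls without that library (log2 difference -0.28, adjusted p = 0.119). Sdha and Atp5g2, which rose, and Uqcrfs1, an iron-sulfur protein of complex III, which fell, also lost their calls without that library in both comparisons.

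The 2 additions were not told apart by the test under TGF-β1, and they were not compared under PBS. None of 84 members passed between BCKAs and BCAAs, where 0.268% of all genes were called (0.222% higher and 0.0459% lower), and before adjustment 2 members were higher and 1 lower at p under 0.05. The smallest p was that of Cox6a2 (log2 difference -0.76 (adjusted p = 0.386), 95% interval -1.22 to -0.29). For Cox4i2 the difference was 0.50 (adjusted p = 0.724), 95% interval 0.14 to 0.87, and for Atp5b it was -0.02, 95% interval -0.20 to 0.15.

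Expressed as a share of each isoform pair, Cox4i2 made up 1.49% ± 0.407 (SD, n = 3) of Cox4i1 plus Cox4i2 under PBS in complete medium, 5.10% ± 0.294 under TGF-β1, 0.414% ± 0.222 under TGF-β1 without BCAAs, 5.23% ± 0.778 with BCAAs back and 7.81% ± 1.06 with BCKAs back. Cox4i2 was therefore a small part of its pair in every fibroblast group. Ndufa4l2, in contrast, made up 53.5% ± 1.18 of Ndufa4 plus Ndufa4l2 under PBS, 79.8% ± 1.25 under TGF-β1 and 52.8% ± 19.4 under TGF-β1 without BCAAs, where single libraries ran from 39.6% to 75.0%. Cox6a2 reached 4.43% ± 0.653 of its pair with Cox6a1 in the BCAA-free TGF-β1 group and 1.27% ± 0.0518 in the complete one. Cox6b2 made up 19.6% ± 0.945 of its pair with Cox6b1 in the complete TGF-β1 group and 5.12% ± 0.262 without BCAAs. Under PBS its share was 17.4% ± 1.64 in complete medium, which overlapped the TGF-β1 libraries, and 12.3% ± 0.954 without BCAAs.

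Lists of other genes of the pathway were counted against all genes. In BCAA-free against complete medium under TGF-β1, where 35.5% of all genes were higher and 24.8% lower, 10 of 15 tested regulators of mitochondrial gene expression were higher and none lower (median 0.67), among them Lonp1, the matrix protease (2.43), Pprc1, a coactivator (1.76), Polrmt, the mitochondrial RNA polymerase (1.26), and Tfam, the packaging factor of mitochondrial DNA (1.18). Nrf1 and Gabpa, whose core letters are marked in the promoters above, were higher by 0.36 and 0.55. Of 15 electron carrier genes 9 were higher and 2 lower, with Cyc1, cytochrome c1 of complex III, at 1.13 and Cycs, cytochrome c, at 0.56. Of 78 mitochondrial ribosomal proteins 24 were higher and 9 lower, of 43 assembly factors 16 and 3, and of 13 tricarboxylic acid cycle genes 6 and 1. The shares of ribosomal proteins and assembly factors called higher were near that of all genes. With BCAAs returned, none of the regulators rose and 10 fell, where 33.3% of all genes fell, and with BCKAs none rose and 11 fell, where 33.4% did. In complete medium TGF-β1 raised 1 and lowered 5 of the 15 regulators and raised 8 and lowered none of the 78 ribosomal proteins. Over all genes 12.2% were higher and 36.4% lower there, so the regulators' lower share and the ribosomal proteins' higher share were near the background. The fibroblast table listed no mitochondrially encoded subunit, so those were not analysed here in fibroblasts.

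**Figure D3:**
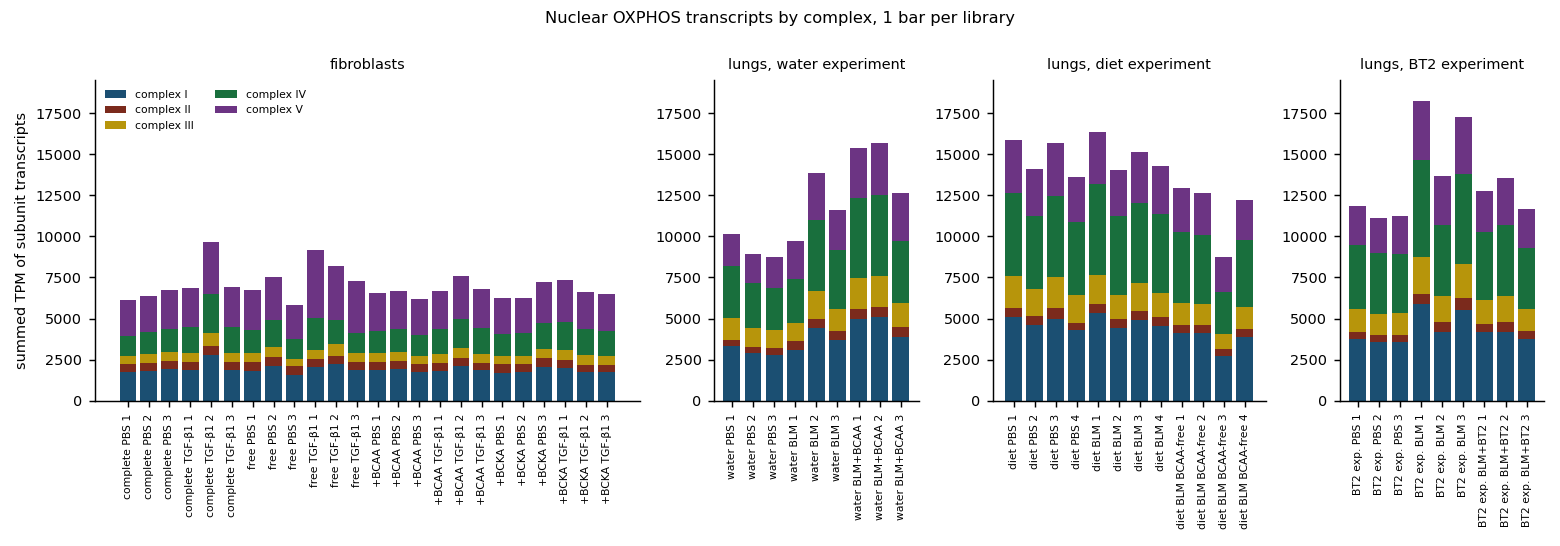
Stacked bars give the summed TPM of the members of each complex in each of the 54 libraries, in 4 panels that were normalized separately by the authors. Fibroblast totals run from 5827 to 9676 TPM, and the lowest lung total within the diet experiment is mouse 3 of the BCAA-free diet group at 8756 TPM.

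In whole lungs a lower level can come from fewer cells of a type or from less RNA per cell, and these cannot be told apart here. The PBS lungs of the diet experiment stood apart from the PBS lungs of the other experiments in all 4 mice. Their endothelial markers (Pecam1, Cdh5 and Cldn5) summed to between 91.5 and 170 TPM, against 478 or more in every other lung, their leukocyte markers to between 7.35 and 7.91 TPM against 31.0 or more, and their alveolar type 1 markers to between 403 and 638 TPM against 1441 or more. As this is the whole control group, bleomycin results of the diet experiment cannot be given without it. The 10 cardiac muscle markers, whose genes a lung sample can hold through pulmonary vein muscle or adjoining heart, summed to between 193 and 353 TPM in the PBS lungs of the water experiment, 979 and 2170 in those of the diet experiment and 682 and 1716 in those of the BT2 experiment. After bleomycin they were lower without overlap in the diet experiment (65.4 to 120 TPM) and the BT2 experiment (104 to 132 TPM). In the water experiment they were at 93.9 to 207 TPM, which overlapped, with a mean of 151 against 299 TPM under PBS. The treated bleomycin groups lay at 54.2 to 86.2 TPM with BCAA water, 296 to 612 TPM with the BCAA-free diet and 250 to 364 TPM with BT2. Of the 10 markers, 1 (Nppa) was listed at 0 throughout a group, in the bleomycin lungs of the BT2 experiment. Markers of other cell types, none of them at 0 throughout a group, also moved. The 4 macrophage markers summed to between 56.0 and 77.6 TPM under PBS and 222 and 331 TPM after bleomycin in the water experiment, to 62.0 to 101 and 438 to 569 TPM in the diet experiment, and to 56.1 to 67.0 and 745 to 930 TPM in the BT2 experiment. The 6 fibroblast markers went from 195 to 327 TPM to 639 to 897 TPM, from 190.1 to 287 TPM to 1955 to 2675 TPM, and from 235 to 271 TPM to 1862 to 2355 TPM. Both lists were therefore above every PBS lung of their experiment in all bleomycin lungs. The 3 airway markers, which include Scgb1a1, went from 135699 to 244423 TPM to 49246 to 109273 TPM in the water experiment, from 109887 to 274695 to 24404 to 28615 TPM in the diet experiment and from 103745 to 146990 to 11350 to 22172 TPM in the BT2 experiment. The 4 alveolar type 2 markers overlapped in the water experiment (37445 to 38792 and 32385 to 45854 TPM), were higher in the diet experiment (7439 to 11381 and 17947 to 25463 TPM) and lower in the BT2 experiment (44753 to 57648 and 2106 to 14755 TPM). The extraction protocol speaks of heart where the samples are labelled lung, while the surfactant gene Sftpc stood at 4150 TPM or more in the PBS lungs of the diet experiment.

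With the deposited scaling, members called after bleomycin were mostly higher in the water and BT2 experiments and mixed in the diet experiment. In the water experiment 18 of 86 members rose and 2 fell, where 21.9% of all genes were called, 14.8% higher and 7.08% lower, and the median was 0.30 against 0.09 over all genes. In the BT2 experiment 47 of 86 rose and 5 fell, where 30.6% of all genes were called, 17.3% higher and 13.3% lower, with a median of 0.52 against -0.02. In the diet experiment 7 of 87 rose and 9 fell, where 60.9% of all genes were called, 48.7% higher and 12.3% lower, with a median of 0.003 against 0.56. The counts depended on scaling. In the diet experiment centring each library on its median gene shifted all genes by -0.56 and gave 2 members higher and 60 lower, and removing the Scgb1a1 row gave 4 and 28. The other counts moved too: they were 9 higher and 2 lower after centring and 8 and 2 without Scgb1a1 in the water experiment, and 30 and 5, and 25 and 5, in the BT2 experiment. Over all genes tested in the water experiment, 2462 were higher and 2116 lower after centring, and 1922 and 2225 without Scgb1a1. There the members' share called higher was below that of all genes under both settings. The all-gene counts were 3368 and 3190, and 2454 and 3414, in the BT2 experiment. In the diet experiment they were 4515 and 4696, and 7284 and 3095. The macrophage, fibroblast and airway marker sums given above moved with bleomycin in all 3 experiments, and their part in these results was not tested. The doses and days differed between the experiments and no test crossed them.

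Rises were spread over all complexes. In the water experiment Ndufs8, an iron-sulfur subunit of complex I, was at 59.3, 57.8 and 52.2 TPM under PBS and 99.9, 115 and 95.4 TPM after bleomycin (log2 difference 0.86, SE 0.129, adjusted p = 0.00113). Sdhd, a membrane anchor of complex II, was at 125, 125 and 136 TPM and then 208, 204 and 192 TPM (log2 difference 0.64, SE 0.113, adjusted p = 0.00284), and Atp5o, part of the stalk of complex V, at 49.5, 42.8 and 37.0 TPM and then 81.9, 103 and 73.6 TPM (log2 difference 0.98, SE 0.158, adjusted p = 0.00171). In all 3 genes the groups were fully apart. Sdhb (0.59) and Sdhc (0.51) rose as well, so that 3 of the 4 complex II genes rose, as did Uqcrc1 (0.45) and Cox5a, a matrix-side subunit of complex IV (0.56). With each library left out in turn, 8 of the 20 calls held in all 6 refits, those of Ndufs8, Sdhb, Sdhd and Atp5o among them, while Sdhc held in 3, Uqcrc1 in 2 and Cox5a in 1. Without each PBS lung in turn the counts of members higher were 11, 9 and 8, and without bleomycin mouse 1, which stood apart, 22 were higher and 1 lower.

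In the BT2 experiment, where the bleomycin dose was 3.5 mg/kg, Sdhd was at 149, 132 and 149 TPM under PBS and 287, 263 and 307 TPM after bleomycin (log2 difference 0.99, SE 0.163, adjusted p = 0.00228). Atp5mpl, a small membrane subunit of complex V, was at 76.6, 73.4 and 83.2 TPM and then 198, 115 and 187 TPM (log2 difference 1.05, SE 0.201, adjusted p = 0.00448), and Ndufv3, an accessory subunit of complex I, at 33.4, 27.4 and 31.2 TPM and then 72.2, 47.2 and 64.2 TPM (log2 difference 0.96, SE 0.180, adjusted p = 0.00417). No bleomycin lung overlapped a PBS lung in these genes, and mouse 2 was the lowest of the bleomycin group in each. Uqcr11 (0.90) led complex III, and Cox7a2l, a factor of respiratory supercomplexes, led complex IV (0.95 (adjusted p = 0.00814)). Complex V had 12 of 17 members higher, complex I 20 and complex IV 8 higher and 5 lower. With each library left out in turn, 22 of the 52 calls held in all 6 refits, those of Sdhd, Atp5mpl, Ndufv3, Uqcr11 and Cox7a2l among them. Without mouse 2 of the bleomycin group 64 members were higher and 5 lower, and without single PBS lungs between 21 and 27 were higher. Over all genes tested, 3089 were higher and 3938 lower without mouse 2.

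Of the 18 members higher in the water experiment, 14 (77.8%) were also among the 47 of the BT2 experiment, of which they made up 29.8%, while 47 of all 86 members tested there were higher. Ndufs8, a complex I core subunit, was called higher after bleomycin in all 3 experiments, although its call held in 2 of the 8 refits of the diet experiment. Cox7a2l rose in the diet experiment (0.71 (adjusted p = 0.00165)), while Ndufb3 (-0.51 (adjusted p = 0.00715)), Cox7c (-0.51 (adjusted p = 0.00805)), Ndufab1 (-0.42), Ndufb5 (-0.30) and Atp5md (-0.34) fell. Of the 16 calls of that experiment, 12 held in all 8 refits with a library left out.

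The muscle isoforms of complex IV fell after bleomycin. Cox6a2 was at 32.1, 31.0 and 21.6 TPM under PBS and 9.55, 19.4 and 10.8 TPM after bleomycin in the water experiment (log2 difference -1.08, SE 0.293, adjusted p = 0.0239). In the diet experiment it was at 69.9, 49.6, 123 and 104 TPM and then 10.2, 12.6, 6.94 and 14.6 TPM (log2 difference -2.82, SE 0.413, adjusted p = 7.79e-05), and in the BT2 experiment at 112, 53.5 and 114 TPM and then 16.3, 11.6 and 10.1 TPM (log2 difference -2.73, SE 0.360, adjusted p = 0.000806). In each experiment all PBS lungs lay above all bleomycin lungs, and the call held with every library left out in turn in the diet and BT2 experiments and in 2 of 6 refits of the water experiment. Cox8b went from 8.17, 5.74 and 5.56 TPM to 0, 0.806 and 1.86 TPM in the water experiment (-2.10 (adjusted p = 0.00291)). It went from 34.5, 15.7, 48.5 and 78.8 TPM to 0.426, 2.97, 0 and 3.77 TPM in the diet experiment (-4.10 (adjusted p = 0.00182)) and from 29.3, 9.68 and 26.2 TPM to 0, 4.78 and 6.11 TPM in the BT2 experiment (-2.58 (adjusted p = 0.0184)). The groups again stood apart, and a bleomycin lung of every experiment was listed at 0. The Cox8b call held in every refit of the water and diet experiments and in 4 of 6 of the BT2 experiment. Cox7a1 fell in the diet (-2.06 (adjusted p = 0.0376), called in 1 of 8 refits) and BT2 experiments (-2.09 (adjusted p = 0.000426)) and did not pass in the water experiment (-0.80 (adjusted p = 0.275)). The summed cardiac markers given above, which overlapped in the water experiment, moved in the same direction as these 3 isoforms. So did the mean sum of the brown and white fat markers, from 67.5 to 21.9 TPM in the water experiment. It went from 82.3 to 16.3 TPM in the diet and from 160 to 36.9 TPM in the BT2 experiment, with overlap in both. Skeletal muscle markers were lower without overlap in the diet experiment alone (13.1 to 28.4 and then 2.79 to 10.9 TPM). The part of these markers in the result was not tested. As shares of their pairs, Cox6a2 went from 7.54% ± 0.661 (SD, n = 3) to 2.65% ± 0.568 of Cox6a1 plus Cox6a2 in the water experiment, from 9.46% ± 4.14 to 1.11% ± 0.326 (n = 4) in the diet experiment and from 14.9% ± 5.11 to 1.62% ± 0.208 in the BT2 experiment.

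Cox4i2 and Ndufa4l2 took opposite directions in the diet and BT2 experiments. In the diet experiment Cox4i2 was at 26.4, 13.6, 26.3 and 20.5 TPM under PBS and 230.0, 169.8, 164 and 194 TPM after bleomycin (log2 difference 3.10, SE 0.191, adjusted p = 6.17e-08). Ndufa4l2 there was at 10.0, 9.09, 14.8 and 12.0 TPM and then 117, 78.2, 80.5 and 112 TPM (log2 difference 2.97, SE 0.398, adjusted p = 3.7e-05). In the BT2 experiment Cox4i2 was at 223, 281 and 195 TPM and then 111, 174 and 105 TPM (log2 difference -0.86, SE 0.211, adjusted p = 0.0138). Ndufa4l2 fell alongside it, from 84.7, 102 and 63.7 TPM to 31.5, 60.9 and 37.0 TPM (log2 difference -0.97, SE 0.252, adjusted p = 0.018). The diet calls held in all 8 refits, and those of the BT2 experiment in 5 of 6 for Cox4i2 and 3 of 6 for Ndufa4l2. In the water experiment Cox4i2, at 157, 175 and 98.3 TPM and then 124, 149 and 141 TPM, did not pass (-0.02 (adjusted p = 0.968)), and Ndufa4l2 rose (0.49 (adjusted p = 0.0483)), a call that no refit without a library kept. The diet rise started from the PBS lungs that stood apart: Cox4i2 was between 98.3 and 281 TPM in the PBS lungs of the other experiments, in separately normalized tables, and the endothelial markers of the diet experiment summed to 91.5 to 170 TPM under PBS and 1259 to 1837 TPM after bleomycin. The summed 5 smooth muscle and pericyte markers did not rise there, going from 304 to 643 TPM to 247 to 363 TPM, which overlapped. The part of these marker lists in the result was not tested. The partner Ndufa4 fell in the diet experiment, from 362, 303, 336 and 318 TPM to 212, 206, 225 and 182 TPM (-0.68 (adjusted p = 0.000163)), and rose in the BT2 experiment (0.49 (adjusted p = 0.0291), called in 1 of 6 refits).

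**Figure D4:**
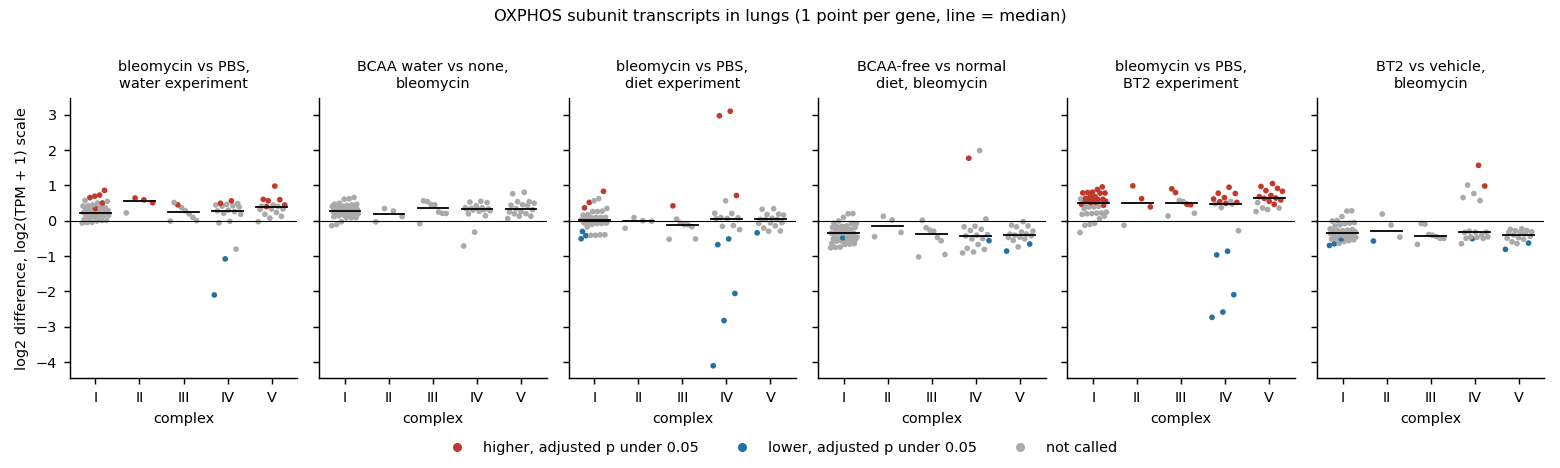
Each point is 1 member's log2 difference on the log2(TPM + 1) scale in 1 of the 6 lung comparisons, by complex, with the median as a line and calls at an adjusted p under 0.05 in colour. Most points lie above 0 after bleomycin in the BT2 experiment (median 0.52) and below 0 for BT2 against vehicle (median -0.37), with Cox6a2 on the opposite side in both.

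BCAAs in the drinking water before bleomycin made no call among the members. None of 86 passed limma's test, where 1.2% of all genes were called (0.872% higher and 0.331% lower). The median was 0.31 against 0.03 over all genes. Of 86 differences 79 were above 0, and before adjustment 15 members were higher and 1 was lower at p under 0.05. Signs and unadjusted p-values were not counted over all genes. The members' summed TPM was 11719 ± 2065 (SD, n = 3) without and 14569 ± 1699 with BCAA water, and 9259 ± 754 in the PBS lungs. With BCAA water the macrophage markers summed to between 414 and 588 TPM and the fibroblast markers to between 1429 and 2049 TPM, above every bleomycin lung with normal water, and their part was not tested. Without bleomycin mouse 1 there was again no call.

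The BCAA-free diet after bleomycin was followed by lower levels in most members, few of which passed. Of 87 tested, 1 rose and 4 fell, where 10.1% of all genes were called, 4.02% higher and 6.12% lower. The share of members called lower was thus near that of all genes. Of the differences 78 were below 0, and 38 members were lower at an unadjusted p under 0.05, counts that were not made over all genes. The members' median was -0.39 against -0.09 over all genes. Cox4i1 was at 829, 692, 701 and 666 TPM on normal diet and 502, 585, 369 and 519.6 TPM on the BCAA-free diet (log2 difference -0.56, SE 0.149, adjusted p = 0.033). Atp5l, a membrane subunit of complex V, was at 48.4, 37.2, 54.5 and 37.6 TPM and then 27.9, 30.7, 14.7 and 25.0 TPM (log2 difference -0.86, SE 0.206, adjusted p = 0.0204). In both, the groups did not overlap and mouse 3 was the lowest. Atp5g2 (-0.66 (adjusted p = 0.0411)) and Ndufa13 (-0.48 (adjusted p = 0.0485)) fell too. Cox6a2 rose, to 55.9, 42.9, 14.9 and 62.3 TPM from 10.2, 12.6, 6.94 and 14.6 TPM (log2 difference 1.77, SE 0.413, adjusted p = 0.0181), together with the cardiac markers, whose part in the result was not tested. Without mouse 3, whose mitochondrially encoded subunits summed to 147151 TPM against 40551 to 53221 TPM in its partners, 2 members rose and 10 fell, Cox8b being higher (log2 difference 3.04, adjusted p = 0.00437). Over all genes tested, 1312 rose and 1467 fell without that mouse. The macrophage markers (251 to 354 TPM) and fibroblast markers (733 to 1273 TPM) lay below, and the alveolar type 2 markers (35144 to 54982 TPM) above, those of the bleomycin lungs on normal diet, and their part was not tested either. The brown and white fat markers (39.0 to 188 TPM) overlapped those on normal diet (2.99 to 49.1 TPM). None of the 5 calls held in all 8 refits, and without bleomycin mouse 1 or mouse 3 on normal diet none passed.

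BT2 after bleomycin was also followed by lower levels in most members. Of 86 tested, 2 rose and 7 fell, where 11.8% of all genes were called, 6.34% higher and 5.41% lower. The share of members called lower was not far from that of all genes. Of the differences 75 were below 0, and 41 members were lower at an unadjusted p under 0.05, again not counted over all genes. The members' median was -0.37 against 0.12 over all genes. Ndufv2, a core subunit next to Ndufv1 in complex I, was at 176, 116 and 159.7 TPM with vehicle and 98.8, 91.6 and 83.4 TPM with BT2 (log2 difference -0.70, SE 0.169, adjusted p = 0.0318). Atp5mpl was at 91.4, 99.7 and 85.5 TPM with BT2, against the bleomycin values given above (log2 difference -0.81, SE 0.201, adjusted p = 0.0349), and Sdhd at 199, 227 and 155 TPM (-0.57, SE 0.163, adjusted p = 0.0492). All BT2 lungs lay below all vehicle lungs in these 3 genes. Cox5a (-0.51), Atp5c1, the γ subunit of the synthase (-0.63), Ndufa11 (-0.65) and Ndufb6 (-0.51) completed the 7. Cox6a2 rose to 55.0, 24.1 and 44.0 TPM from 16.3, 11.6 and 10.1 TPM (log2 difference 1.57, SE 0.360, adjusted p = 0.028), and Ndufa4l2 to 93.4, 79.2 and 76.8 TPM from 31.5, 60.9 and 37.0 TPM (log2 difference 0.98, SE 0.252, adjusted p = 0.0376). The cardiac marker sum was higher with BT2, as were the alveolar type 2 (41124 to 72540 TPM) and airway sums (49028 to 104577 TPM), while the macrophage (320 to 454 TPM) and fibroblast sums (469 to 1305 TPM) were lower, each without overlap with the vehicle lungs. Their part in the result was not tested. With the Scgb1a1 row removed the count was 3 higher and 3 lower, beside 1668 and 771 over all genes tested. Without vehicle mouse 2 the all-gene count was 3375 higher and 1552 lower. The count hung on single lungs: without vehicle mouse 2 it was 4 higher and 52 lower, without vehicle mouse 1 it was 1 and 0, and without vehicle mouse 3 it was 2 and 0. Without BT2 mouse 1 or 3 none passed, and none of the 9 calls held in all 6 refits.

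Summed over members, the levels in the BT2 experiment were 11387 ± 382 TPM (SD, n = 3) under PBS, 16392 ± 2402 TPM with bleomycin and vehicle and 12646 ± 943 TPM with bleomycin and BT2. In the diet experiment they were 14809 ± 1128, 14956 ± 1028 and 11651 ± 1952 TPM (SD, n = 4). Of the mitochondrially encoded subunits, 11 of 13 fell after bleomycin in the diet experiment (median -1.60), where 12.3% of all genes fell, 3 of 13 in the BT2 experiment (13.3% of all genes) and 1 of 13 in the water experiment (7.08%), and none rose. Mitochondrial ribosomal proteins had 14 of 77 higher and none lower after bleomycin in the water experiment, near the 14.8% of all genes called higher there, and 32 of 77 higher and none lower in the BT2 experiment, where 17.3% of all genes were higher. Assembly factors showed 8 of 44 and 10 of 44 higher in the same comparisons, none lower, near those shares. With BT2, 7 of 77 ribosomal proteins fell and none rose, the same count as with the BCAA-free diet, where 5.41% and 6.12% of all genes fell. Among regulators, 10 of 16 were higher and Ppargc1a, the coactivator of mitochondrial biogenesis, lower (-0.75) after bleomycin in the diet experiment, where 48.7% of all genes were higher, whereas 1 was higher and 2 lower in the BT2 experiment.

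**Figure D5:**
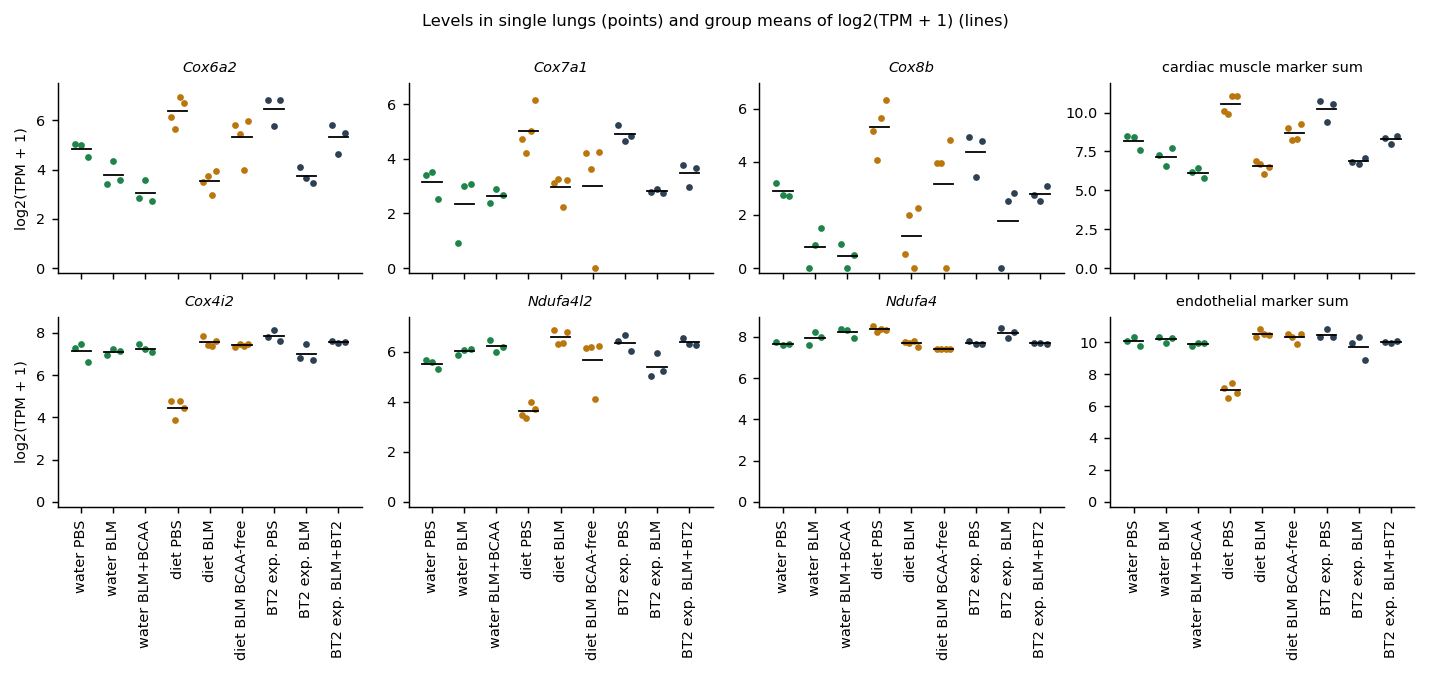
Points are single lungs and lines are group means on a log2(TPM + 1) axis, for 6 complex IV isoform genes and for the summed cardiac muscle and endothelial markers, in 9 groups of 3 experiments that were normalized separately. Cox6a2, Cox7a1 and Cox8b have their highest group means in the PBS lungs of the diet and BT2 experiments, where the cardiac markers sum to 682 TPM or more, and the endothelial sum is lowest in the PBS lungs of the diet experiment, at 91.5 to 170 TPM.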

How the data were processed

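RNA-seq TPM values of 54 libraries were used as deposited by the authors in 4 tables, each normalized separately, so no test crossed tables. The submitters' processing notes name, without versions, the build mm39 and the tools HISAT2, featureCounts, Subread, DESeq2, FastQC and Trim Galore. TPM keeps no read depth, so the depth is unknown and no counting interval is given. A table's genes that reached 1 TPM in 3 or more libraries were tested on log2(TPM + 1) with limma 3.58.1 in R 4.3.3 (empirical Bayes with trend, all groups of a table in one fit, two-sided), with Benjamini-Hochberg adjustment over all genes tested and calls at an adjusted p under 0.05. Differences on this scale understate changes of low genes. The procedure was tested on simulated data. SE is limma's moderated standard error, and levels are given per library. Cox7b2 passed no filter, and Cox8b and Ndufb4c in fibroblasts and Ndufa11b in all tables but that of the diet experiment failed it too. Named members were the complex II genes and paired isoforms, the largest called rise and fall per complex and comparison, and the most abundant members. Others were named after their values were seen, and 1 member is not reported here. Members and lists were chosen with earlier results of these data known. The alternatives were other pseudocounts (0.1 and 0.5) and filters, median centring, array weights, a replicate block, a fit to the compared groups alone, removal of mitochondrial or Scgb1a1 rows or of a length trend, and leaving out each library. Removal of Scgb1a1 or the length trend, and leaving out 2 libraries at once, were chosen after seeing the data.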

Additional observations from a re-analysis of the deposited data

Results flagged for a closer look

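In the diet experiment 72 sets of 4 values were tested. In 11 of them a lung lay farther from the others than Dixon's 95% value of 0.829 of the range allows. Chance gives about 1 in 20 for a single set. The sets share lungs and some are sums of members, so that rate is no measure for the count. Most of the 11 were mouse 3 of the BCAA-free diet group. It held Cox6a1 at 426 TPM (others 864 to 940), Cox6b1 at 124 TPM (418 to 466), Cox8a at 203 TPM (684 to 747) and Ndufa4l2 at 16.5 TPM (70.0 to 73.6). Its summed TPM was 2729 for complex I (3901 to 4109), 922 for complex III (1289 to 1299), 2555 for complex IV (4107 to 4327) and 8756 over all members (12236 to 12951), while the mitochondrially encoded subunits reached 147151 (40551 to 53221). In the bleomycin group on normal diet, mouse 3 held Cox7a1 at 3.73 TPM (7.74 to 8.55) and mouse 1 a complex IV sum of 5535 TPM (4797 to 4902).

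The response to TGF-β1 differed between BCAA-free and complete medium by a direct limma test for 26 of 84 members. Over all genes tested 47.6% were called, a larger share. Without both fibroblast libraries that stood apart, 18 members were higher and 16 lower. The named genes among the 26 were Ndufv1 (log2 difference of responses 0.93), Ndufa3 (-1.97), Uqcrh (-1.32), Cox4i2 (-3.31), Cox6a2 (1.75), Cox6b1 (-1.01), Cox6b2 (-2.29), Cox7a1 (-0.98), Cox7a2 (-1.91), Cox8a (-1.46), Ndufa4l2 (-2.49), Atp5b (0.84) and Atp5l (-0.81).

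Some genes went opposite ways after bleomycin in different experiments, a difference between experiments that was not tested. Cox4i2 differed by 3.10 in the diet and by -0.86 in the BT2 experiment, Ndufa4 by -0.68 and 0.49, and Ndufa4l2 by 0.49 in the water, 2.97 in the diet and -0.97 in the BT2 experiment.

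The fibroblasts given BCKAs without TGF-β1 enter no comparison. Cox4i2 there had a mean of 10.1 TPM (9.05 to 11.8) against at most 7.84 TPM in the 6 PBS libraries of complete and BCAA-free medium, and Ndufa4l2 had 134 TPM (122 to 158) against at most 99.0 TPM.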

How the results depend on the processing

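The count of members called moved with the processing as follows (main count first). TGF-β1 in complete medium, 20: 11 with no filter, 44 after centring, 38 with array weights and 33 with the length trend removed. Over all genes tested there, 2789 were higher and 3010 lower after centring, and 3006 and 2677 with the length trend removed. TGF-β1 in BCAA-free medium, 44: 54 with array weights (24 higher, 30 lower, the majority turned) and 16 with only the groups compared. BCAA-free against complete medium under PBS, 0: 1 with array weights. The same under TGF-β1, 45: 17 with only the groups compared and 40 (21 higher, 19 lower) without both libraries that stood apart. The difference of responses, 26: 54, 12 and 34 (18 higher, 16 lower) under array weights, only the groups compared and without both libraries. BCAAs returned, 39: 62 with array weights and 18 with only the groups compared. BCKAs returned, 41: 14 with only the groups compared (5 higher, 9 lower). BCKAs against BCAAs, 0: 3 under both. Bleomycin in the water experiment, 20: 12 with no filter, 11 after centring and 10 without the Scgb1a1 row. BCAA water, 0: 1 with array weights. Bleomycin in the diet experiment, 16: 62 after centring, 30 with array weights, 26 with only the groups compared and 32 without Scgb1a1. BCAA-free diet, 5: 3 with no filter, 39 with array weights, and 1 with the replicate block and with only the groups compared. Bleomycin in the BT2 experiment, 52: 30 without Scgb1a1. BT2, 9: 1 with no filter, 14 with array weights, 5 with the replicate block and 0 with only the groups compared. Apart from fewer libraries or genes in a fit, the cause was not tested. Where no all-gene count is given here or above, a shift of all genes is not told apart from one of the members. The same holds for counts with a library left out.

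With single libraries left out the counts ran, in the same order, from 6 to 27, 35 to 53, 0 to 0, 34 to 58, 21 to 43, 32 to 55, 34 to 52, 0 to 0, 10 to 23, 0 to 2, 12 to 15, 0 to 12, 24 to 69 and 0 to 56. Of 4510 refits of named genes, 4126 kept direction and side of the threshold, 270 lost and 105 gained the call, and 9 turned. Sdhd under TGF-β1 in BCAA-free medium turned to 0.21 with array weights and ran from -0.36 to 0.27 with libraries left out, and with BCKAs returned it turned to -0.19 and ran from -0.23 to 0.40. Bleomycin in the diet experiment turned after centring for Cox4i1 (-0.48), Cox7a2 (-0.47), Sdhb (-0.47), Sdhd (-0.56) and Uqcrc1 (-0.14). Centring shifted all genes by 0.19 for TGF-β1 in complete medium, -0.11 for BCAA-free against complete medium under TGF-β1, -0.12 for the difference of responses, -0.56 for bleomycin in the diet experiment, 0.13 for the BCAA-free diet and -0.11 for BT2. Replicate numbers did not pair the libraries: same-numbered fibroblast libraries had a mean correlation of 0.02, over 0.1 in 29 of 84 pairs. With the replicate block the counts were 25, 45, 0, 48, 30, 41, 42, 0, 14, 0, 14, 1, 49 and 5.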
